A study of Homo sapiens with 3 samples.

Results

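The related messenger RNAs of PCBP1, HNRNPK and PCBP2 were examined for peaks of UV-crosslinked RNA recovered with HNRNPA0 that carried an HA tag. HNRNPA0 belongs to the hnRNP A/B proteins, which bind RNA through RNA-recognition motifs. Their peaks were the lines of the 3 peak lists that carried the Ensembl gene ID ENSG00000169564 (PCBP1), ENSG00000165119 (HNRNPK) or ENSG00000197111 (PCBP2). These 3 genes, of 6583 gene IDs with a peak in any list, held 68 of 50800 deposited lines. PCBP1 accounted for 1 of them, HNRNPK for 33 and PCBP2 for 34. The lists came from 3 replicates of one group, HEK293T cells (a human embryonic kidney line, genotype WT) given 750 ng of a plasmid encoding the tagged protein and irradiated with UV light at 254 nm. The assay was easyCLIP, in which RNA bonded to the tagged protein is recovered on anti-HA beads, trimmed with RNase and sequenced. The tagged protein was thus made beside that from the cell's own gene. No untreated, untagged or input library was used here. The labels do not say whether the replicates were separate cultures, so the spread between them may be technical.

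PCBP1, PCBP2 and hnRNP K belong, with PCBP3 and PCBP4, to the poly(C)-binding proteins, which bind C-rich single-stranded RNA through K-homology (KH) domains. They act in splicing, messenger RNA stability and translation, and in many cell types they are among the abundant RNA-binding proteins. PCBP2 and HNRNPK are spliced from pre-mRNAs with introns, whereas PCBP1 has none and is held to have arisen by the copying of a processed PCBP2 transcript back into the genome. In the RefSeq table of GRCh38.p14, PCBP1 lies at chr2:70087477-70089203 on the plus strand and spans 1727 bp with 1 listed transcript. HNRNPK lies at chr9:83968083-83980615 on the minus strand and spans 12533 bp with 9 listed transcripts, and PCBP2 at chr12:53452102-53481162 on the plus strand spans 29061 bp with 7. These intervals include introns, and exons were not told apart here.

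The intronless gene and its spliced paralog PCBP2 share a stretch of like DNA just before their starts, and RefSeq sequence of both is shown for that reason. Within the 250 bases before the gene start, the best local alignment of PCBP1 and PCBP2 paired 56 bases, of which 48 (85.7%) were identical. Both stretches are on the plus strand, at chr2:70087421-70087476 and chr12:53452041-53452097 of GRCh38.p14, and capitals mark runs of 10 or more identical bases.
PCBP1: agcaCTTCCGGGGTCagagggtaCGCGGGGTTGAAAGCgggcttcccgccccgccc
PCBP2: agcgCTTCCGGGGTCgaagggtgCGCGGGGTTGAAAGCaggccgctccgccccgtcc
The alignment score was 38 (1 for a match, less for mismatches and gaps), against 12 to 14 when either gene was set against the 2 start windows of HNRNPK. No other genes were aligned, and the origin of the likeness was not tested. The run of 15 bases, searched on both strands, was found in 4 of 35116 windows of the same length (0.0114%), namely those of PCBP1 and PCBP2 and those of ASPRV1 and PCBP1-AS1, transcribed from the minus strand beside PCBP1. The 250 bases before the ASPRV1 start, at chr2:70087375, contain the PCBP1 stretch, so that window holds the same copy of the run. Whether the PCBP1-AS1 window also does was not checked, so the windows are not all separate copies. The run of 11 bases was found in 34 windows (0.0968%). No list had a peak in either stretch.

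HNRNPK is also the host of a microRNA gene. MIR7-1 occupies chr9:83969748-83969857 on the same strand, and the mature RNAs cut from it, at chr9:83969811-83969834 and chr9:83969771-83969792, are given with bases 2 to 8, the seed that pairs with targets, in capitals.
hsa-miR-7-5p: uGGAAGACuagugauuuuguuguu
hsa-miR-7-1-3p: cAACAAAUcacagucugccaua
None of the 33 HNRNPK peaks overlapped the hairpin, and the nearest lay 379 nt away.

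HNRNPK held the strongest peaks of the 3 genes, PCBP2 held as many but weaker ones, and PCBP1 held a single weak peak in 1 replicate. The strength of a peak is given by its read number, the whole number at the end of its deposited name, which is read here as the reads in the peak. Across the library, the summed read number of peaks outside the mitochondrial chromosome was 99141 to 114203 per replicate, and 48.3% to 63.1% of all read numbers were mitochondrial.

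PCBP1 had 0 peaks in replicate 1, 0 in replicate 2 and 1 in replicate 3. The single peak lay at chr2:70088752-70088870, was 119 nt wide and had a read number of 5 and a p-value of 0.0130 from the authors' peak caller. Its centre lay 1334 nt past the gene start and 393 nt before the 3′ end, and the remaining stretches of 1275 and 333 nt held no peak. The lists hold only peaks past the caller's limits, so an absent line gives no bound on the reads that fell on PCBP1.

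The names of the peaks also carry an index that counts from 0 along the chromosome within a gene ID, and some indices are missing. The PCBP1 peak has index 1, and no line with index 0 is among those used here, so whether PCBP1 had a further peak upstream in replicate 3 is not known. In HNRNPK, index 4 is missing in replicate 3, between listed peaks that end at 83970317 and start at 83971882. In PCBP2, replicate 2 lacks index 0, before 53455361, and index 13, between 53471808 and 53479713. Replicate 3 lacks index 3, between 53461050 and 53467250, and index 6, between 53467842 and 53473554. Such gaps occurred in 21.4%, 21.9% and 23.2% of the gene IDs of replicates 1, 2 and 3, and their origin is not known. Peak counts, sums and the absence of a peak therefore refer to the listed lines.

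HNRNPK had 13 peaks in replicate 1, 11 in replicate 2 and 9 in replicate 3, with summed read numbers of 191, 192 and 145. Its highest read numbers were 22, 28 and 27. PCBP2 had 11, 15 and 8 peaks in replicates 1, 2 and 3, with summed read numbers of 47, 72 and 50 and highest read numbers of 11, 10 and 9. In number of peaks both spliced genes overlapped, and in summed and highest read number every HNRNPK value lay above every PCBP2 value.

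HNRNPK stood among the upper gene IDs of each list, at ranks 42, 38 and 64 by summed read number among 4680, 4665 and 5054 gene IDs outside the mitochondrial chromosome. PCBP2 stood at ranks 432, 223 and 445. By highest read number HNRNPK stood at 161, 118 and 135, and PCBP2 at 497, 575 and 700. HNRNPK took 0.171% ± 0.0377 of the read numbers outside the mitochondrial chromosome and PCBP2 took 0.0545% ± 0.0158 (SD, n = 3). HNRNPK and PCBP2 thus each ranked higher by summed than by highest read number in every list.

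**Figure D1:**
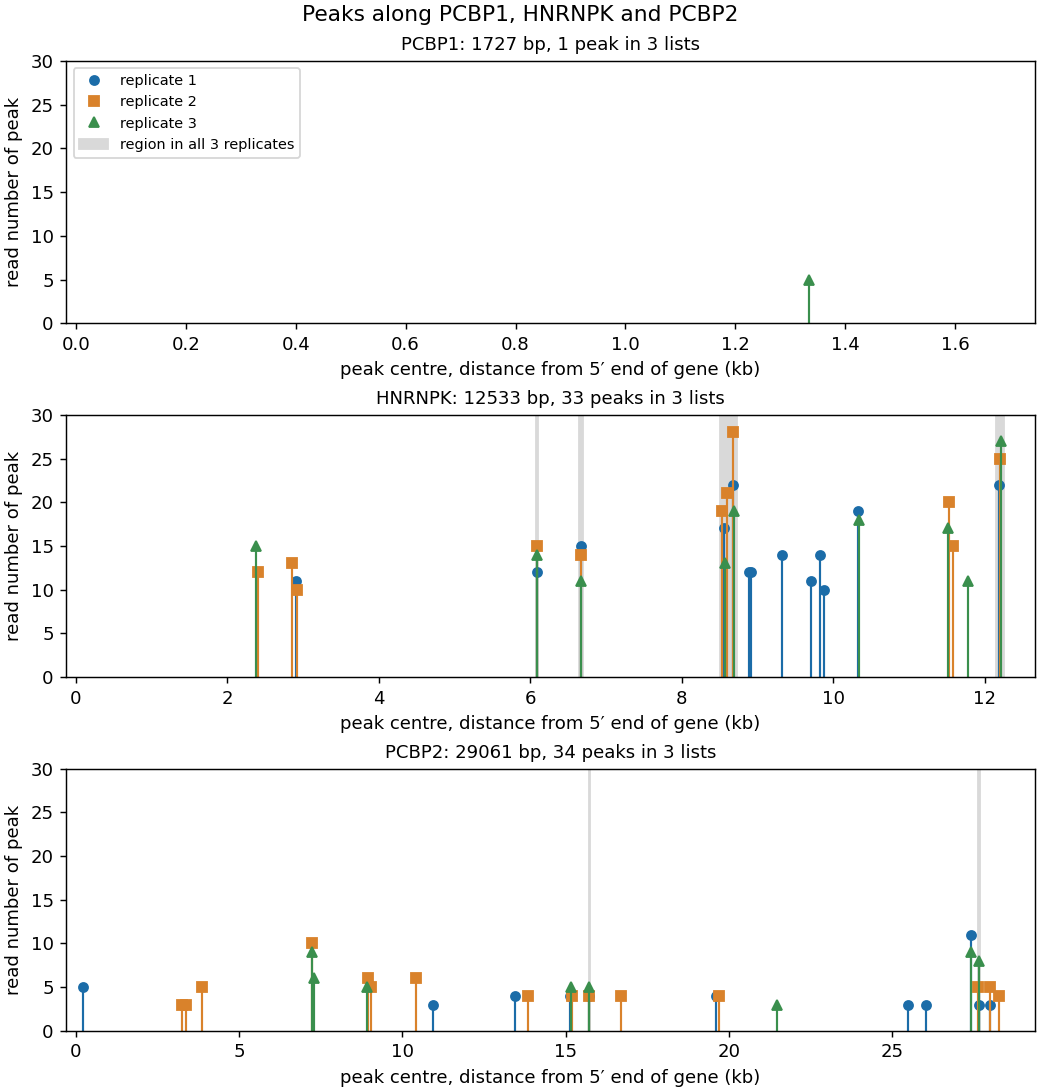
Peaks along PCBP1, HNRNPK and PCBP2, with the distance of the peak centre from the 5′ end of the gene in kb on the horizontal axis (each gene to its own scale) and the read number of the peak on the vertical axis. Symbols mark replicates 1, 2 and 3 and grey bands mark regions with a peak in all 3: HNRNPK peaks lie between 10 and 28, PCBP2 peaks between 3 and 11, and the single PCBP1 peak at 5.

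The intronless PCBP1 was below both spliced paralogs in every replicate, but 3 replicates are too few for a test to pass. Its summed read number averaged 1.67 ± 2.89, against 176 ± 26.9 for HNRNPK (SD, n = 3 each). The mean difference within replicates, PCBP1 minus HNRNPK, was -174 ± 29.7. Against PCBP2, at 56.3 ± 13.7, it was -54.7 ± 15.0 (SD, n = 3). In an exact sign-flip permutation test (two-sided), p was 0.25 for each of the 2 differences and 0.25 after Benjamini-Hochberg adjustment, the smallest value that 3 replicates allow. No ratio is given because PCBP1 had no listed peak in 2 of the replicates.

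PCBP1 is much shorter than the gene intervals of its paralogs, and scaling by length altered the comparison with PCBP2. Per kb of gene interval, PCBP1 had summed read numbers of 0, 0 and 2.90, and PCBP2 had 1.62, 2.48 and 1.72. In replicate 3 the PCBP1 value was therefore the higher, and in replicates 1 and 2 it was the lower. The means were 0.965 ± 1.67 for PCBP1 and 1.94 ± 0.470 for PCBP2, with an exact sign-flip permutation p of 0.50 (two-sided, n = 3). HNRNPK had 15.2, 15.3 and 11.6 per kb, above PCBP1 in all 3 replicates. Introns count in the interval of the spliced genes and not in their mature RNA. The lists hold no measure of transcript abundance, so more binding and more RNA cannot be told apart.

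Between the spliced genes, HNRNPK exceeded PCBP2 by 4.06, 2.67 and 2.90 times in summed read number in replicates 1, 2 and 3. In highest read number the ratios were 2.00, 2.80 and 3.00. Per kb they were 9.42, 6.18 and 6.72. The exact sign-flip permutation test again gave its smallest p, 0.25 (two-sided, n = 3), for each of these 3 quantities. Numbers of listed peaks did not separate the genes, at 11 ± 2 for HNRNPK and 11.3 ± 3.51 for PCBP2 (SD, n = 3), with a mean difference of -0.333 ± 3.21. These counts stand at unlike lowest read numbers. At a read number of 10 or more, HNRNPK had all of its 33 peaks and PCBP2 had 2 of its 34.

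**Figure D2:**
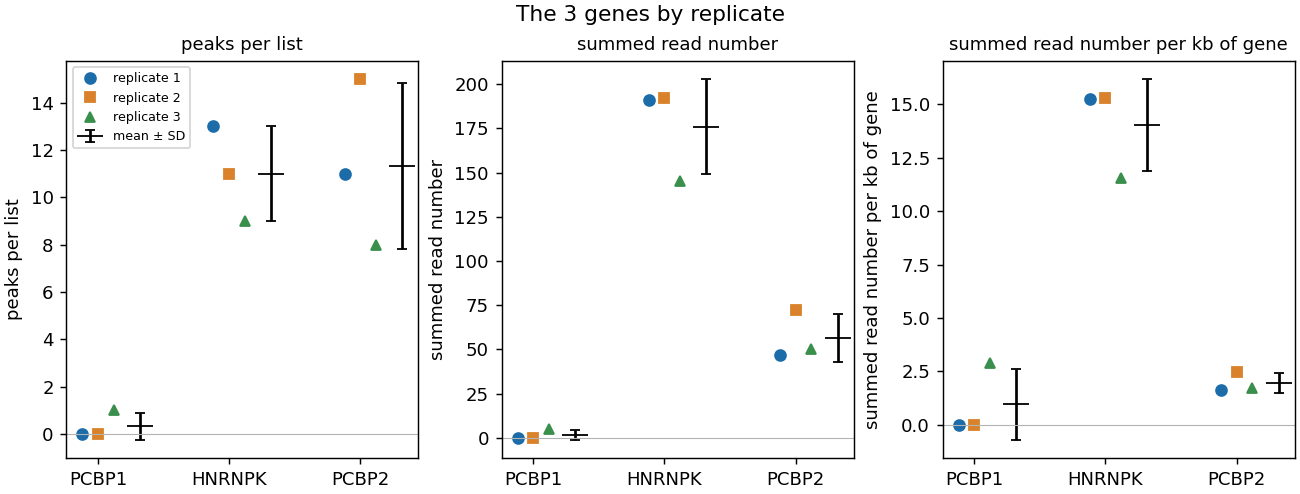
Peaks per list, summed read number and summed read number per kb of gene interval for PCBP1, HNRNPK and PCBP2, with a symbol for each replicate and the mean ± SD (n = 3) in black. HNRNPK lies above the others in both read-number panels, and the PCBP1 value of replicate 3, at 2.90 per kb, lies above all 3 PCBP2 values only after scaling by length.

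Peaks were joined into a region where they overlapped by 1 bp or more within a gene ID, and a region with a peak of all 3 replicates is called recurrent. HNRNPK had 18 regions, of which 5 were recurrent, 4 held peaks of 2 replicates and 9 of 1. PCBP2 had 24 regions, of which 2 were recurrent, 5 held peaks of 2 replicates and 17 of 1. PCBP1 had 1 region, with a peak of 1 replicate. Thus 2 of the 3 genes had a recurrent region, against 21.6% of the 6583 gene IDs with a peak in any list. Of gene IDs with a peak in all 3 lists, as HNRNPK and PCBP2 have, 43.4% had one. Over all gene IDs with a peak, 7.88% had 2 or more and 0.987% had 5 or more. More recurrent regions than in HNRNPK were found in 47 gene IDs, and more than in PCBP2 in 243.

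The recurrent region nearest the 3′ end of HNRNPK was also its strongest on average, though not in every replicate. It lay at chr9:83968358-83968470, with its centre 332 nt from the end of the gene, and its highest read numbers were 22, 25 and 27 in replicates 1, 2 and 3, or 24.7 ± 2.52 (SD, n = 3). The 3 peaks had widths of 80, 106 and 96 nt and shared 66 nt. The short stretch of at most 4 nt that the authors' file marks inside each peak lay within 12 nt across the replicates.

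A pair of recurrent regions touched end to end 3858 to 3972 nt before the 3′ end of HNRNPK. The one at chr9:83971882-83971998 had highest read numbers of 22, 28 and 19 (23.0 ± 4.58), and the one at chr9:83971999-83972109 had 17, 21 and 13 (17.0 ± 4.00; SD, n = 3 each). The stretch of 228 nt that both cover is 1.82% of the gene and held 20.4%, 35.4% and 22.1% of the gene's summed read number in replicates 1, 2 and 3. In the strongest peak of each replicate, the marked stretches lay up to 68 nt apart in the first region and 12 nt apart in the second. Replicate 2 had a further peak in the second region, with a read number of 19. Its marked stretch, at chr9:83972079-83972082, lay farther off and is left out of the 12 nt. Touching peaks may hold the same reads, so these sums are descriptions and not counts of molecules.

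The other recurrent regions of HNRNPK lay near the middle of the gene. The region at chr9:83973921-83973972 had highest read numbers of 15, 14 and 11 (13.3 ± 2.08; SD, n = 3). The region at chr9:83974517-83974533 was only 17 nt wide, with 12, 15 and 14 (13.7 ± 1.53; SD, n = 3), and its replicates shared 5 nt. Both lie within the interval of HNRNPK-AS1, an antisense long noncoding RNA at chr9:83972095-83975780, which 7 of the 33 HNRNPK peaks overlapped. All HNRNPK peaks were on the minus strand and no list had a plus-strand peak over the HNRNPK interval, so no peak was assigned to the antisense RNA there.

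Neither recurrent region of PCBP2 held the gene's strongest peaks. The region at chr12:53467801-53467842, near the middle of the gene, had read numbers of 4, 4 and 5 (4.33 ± 0.577; SD, n = 3). The region at chr12:53479711-53479783, 1416 nt from the 3′ end, had 3, 5 and 8 (5.33 ± 2.52; SD, n = 3). The strongest PCBP2 peaks lay in regions missing from 1 replicate: chr12:53479451-53479573 had 11 in replicate 1, no listed peak in replicate 2, where the missing index 13 spans this region, and 9 in replicate 3. The region at chr12:53459272-53459404 had no peak in replicate 1, 10 in replicate 2 and 9 in replicate 3.

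**Figure D3:**
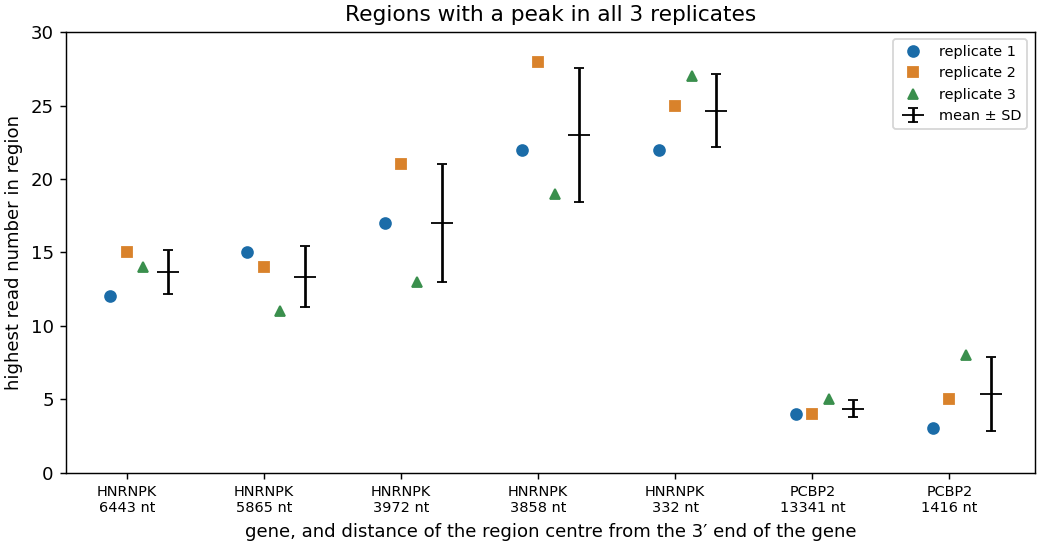
Highest read number in each region with a peak in all 3 replicates, for the 5 regions of HNRNPK and the 2 of PCBP2, ordered within a gene from 5′ to 3′ and labelled with the distance of the region centre from the 3′ end of the gene in nt. Symbols are replicates and black bars the mean ± SD (n = 3): all HNRNPK values are 11 or more and all PCBP2 values 8 or less.

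Recurrent regions held a larger share of the reads in HNRNPK peaks than of those in PCBP2 peaks in every replicate. Recurrent regions held 46.1%, 63.5% and 57.9% of the summed read number of HNRNPK in replicates 1, 2 and 3, and 14.9%, 12.5% and 26.0% of that of PCBP2. Replicate 1 was the lowest for HNRNPK, and 6 of its 13 peaks were found in that replicate alone, all within chr9:83970737-83971725 and with read numbers of 10 to 14. The missing index 4 of replicate 3 falls in a stretch that contains all of these peaks. HNRNPK peaks found in a single replicate numbered 2 in replicate 2 and 1 in replicate 3. The genes also differ in read number, at 10 to 28 for HNRNPK peaks and 3 to 11 for PCBP2 peaks. Among other nuclear gene IDs, 61.6% of peaks in the first range and 11.1% in the second lay in a recurrent region. Whether read number accounts for the difference between the genes was not tested.

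Peaks of both spliced genes were set beside peaks of a like range of read numbers elsewhere, but 3 replicates cannot decide whether they differ. HNRNPK peaks lay in a recurrent region in 49.5% ± 9.59 of cases, against 61.6% ± 1.77 of peaks of other nuclear gene IDs with read numbers of 10 to 28, the range of HNRNPK (SD, n = 3). The HNRNPK share was the lower in all 3 replicates. PCBP2 peaks did so in 18.8% ± 5.86 of cases, against 11.1% ± 0.726 of other peaks with read numbers of 3 to 11, and the PCBP2 share was the higher in all 3. Each difference had an exact sign-flip permutation p of 0.25 (two-sided), the smallest that 3 replicates allow, so no conclusion is drawn from it. A recurrent region counts in every replicate, so the shares of the 3 replicates are not independent. The spread of read numbers inside these ranges was not matched.

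Reads of HNRNPK leaned to the 3′ side of the gene midpoint, and those of PCBP2 lay on both sides. The first 50% of the interval held 12%, 26.0% and 20% of the HNRNPK read number in replicates 1, 2 and 3. In PCBP2 it held 25.5%, 58.3% and 40.0%. The final 10% of the interval held 26.9% ± 13.7 in HNRNPK and 29.9% ± 9.10 in PCBP2 (SD, n = 3), with HNRNPK values of 11.5%, 31.3% and 37.9% and PCBP2 values of 36.2%, 19.4% and 34.0%, which overlap.

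Long stretches of both spliced genes held no peak in any list. In HNRNPK the longest was 3160 nt at chr9:83974534-83977693, or 25.2% of the gene, and the first 2348 nt from the 5′ end formed the second. In PCBP2 the longest was 3923 nt, or 13.5% of the gene, at chr12:53473611-53477533. The missing index 13 of replicate 2 falls between 53471808 and 53479713, which contains this stretch, so an unlisted peak in it is possible. The 5′ end of PCBP2 held one peak, at chr12:53452304-53452374 with a read number of 5 in replicate 1. No other listed PCBP2 peak lay in its first 1000 nt. Replicate 2 lacks index 0, before 53455361, so whether it had a further peak there is not known.

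The weakest listed peak of HNRNPK was stronger than that of most gene IDs with many peaks. Its lowest read numbers were 10, 10 and 11 in replicates 1, 2 and 3, whereas PCBP2 had 3 in each list, which is the lowest read number the lists contain. Of gene IDs with 9 or more peaks, 19 of 371, 17 of 373 and 14 of 441 had a lowest read number of 10 or more, which is 5.12%, 4.56% and 3.17%. The median lowest read number of such gene IDs was 3 in each list. Among gene IDs with a summed read number at least that of HNRNPK, whatever their number of peaks, a lowest read number of 10 or more was common, at 22 of 42, 17 of 39 and 24 of 64. The highest p-value that the authors' caller gave to a listed HNRNPK peak was 2.05e-07, and PCBP2 peaks were listed up to 0.0411. No HNRNPK peak with a read number of 3 to 9 was thus listed, while only 2 of the 34 PCBP2 peaks had a read number of 10 or more. The caller and its settings are not given in the sources used here.

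**Figure D4:**
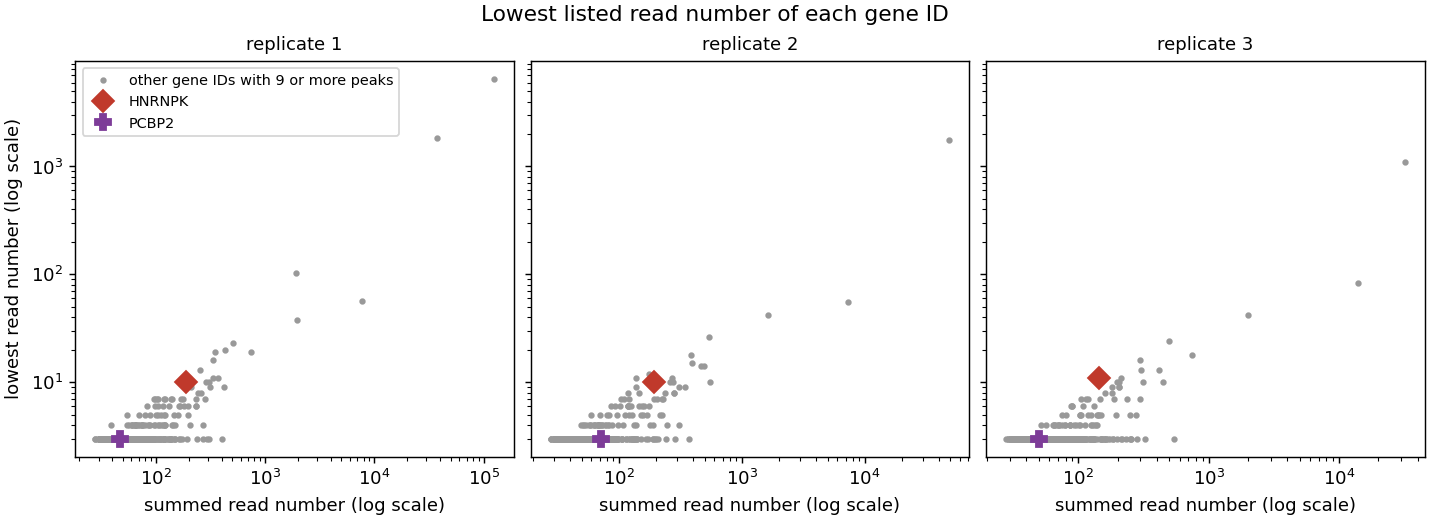
Lowest listed read number against summed read number, both on log scales, for each gene ID with 9 or more peaks in replicates 1, 2 and 3 (grey), with HNRNPK (diamond) and PCBP2 (cross; 8 peaks in replicate 3) marked. HNRNPK sits at 10, 10 and 11, above most of the gene IDs drawn, and PCBP2 sits at 3 in each panel.

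Widths of the peaks varied more than their read numbers. HNRNPK peaks were 3 to 109 nt wide, and 5 of the 33 were narrower than 10 nt although each had a read number of 10 or more. PCBP2 peaks were 6 to 123 nt wide, and 26 of the 34 had read numbers of 3 to 5. HNRNPK peaks covered 4.10% ± 0.178 of the gene interval per replicate and PCBP2 peaks 1.87% ± 0.315 (SD, n = 3).

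Overlapping gene annotations and copies of these genes could divide their reads. A second gene ID, ENSG00000257379, had 7 lines on the plus strand of PCBP2, of which 6 overlapped a PCBP2 peak of the same replicate and 2 had the identical interval. In replicate 1 the peak at the 5′ end had a read number of 5 under PCBP2 and 6 under the second ID, over intervals that overlapped but were not the same. In both pairs with an identical interval the read numbers were equal. At the 3′ end, 6 of the 34 PCBP2 peaks lay in the 1494 nt shared with MAP3K12, a kinase gene on the opposite strand, and no minus-strand peak lay over the PCBP2 interval. Of 5 HNRNPK pseudogenes in the RefSeq table, HNRNPKP4 held 1 peak, with a read number of 3 in replicate 2, and none of 4 PCBP2 pseudogenes held any. The PCBP1 peak lay beyond the 732 nt that PCBP1 shares with its antisense transcript PCBP1-AS1.

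Among 32 other genes for KH-domain proteins, none exceeded HNRNPK in mean highest or mean summed read number, and 5 exceeded PCBP2 in each. Of the 32, 20 had a peak in any replicate and 9 had a recurrent region, which is 45.0% of those with a peak against 21.6% of all gene IDs with one. The median number of recurrent regions over those with a peak was 0, as it was over all gene IDs with one. The median of their mean highest read number was 5.17, against 3.33 over all gene IDs with a peak. The closest relatives, PCBP3 and PCBP4, had no peak in any list.

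FUBP1, which encodes a single-stranded nucleic acid-binding regulator of MYC, had highest read numbers of 25, 19 and 29 and 4 recurrent regions. KHDRBS1, the gene of the signalling and splicing protein SAM68, had 25, 23 and 23 with 2. The highest values of both overlap those of HNRNPK, of 22 to 28. ANKRD17, an ankyrin-repeat protein gene, had 18, 27 and 14 with 3 recurrent regions. IGF2BP1, which stabilises bound messenger RNAs, had 16, 18 and 21 with 3, and the splicing regulator gene QKI had 15, 10 and 9 with 6, one more than HNRNPK. KRR1, a ribosome assembly factor gene, had 13, 6 and 5 with 1, and KHSRP, which promotes decay of AU-rich messenger RNAs, had 8, 6 and 9 with 2. ANKHD1 and FXR1, a relative of the fragile X protein gene, had 1 each, with mean highest read numbers of 5.33 and 4.33.

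PCBP1 was not alone among genes with a coding sequence in a single exon in lacking a recurrent region. Introns outside the coding sequence of these genes were not examined. Of 24 other genes with a coding sequence in a single exon, 12 had a peak in any replicate and 6 had a recurrent region, which is 50.0% of those with a peak against 21.6% of all gene IDs with one. The median of their mean highest read number, over those with a peak, was 6. A total of 11 of the 24 had a higher mean highest read number than PCBP1. Of the 5 that are shorter than 2000 bp, as PCBP1 is, 1 had a peak and 0 had a recurrent region, and all 6 with a recurrent region were among the 19 longer ones; the length limit was chosen after the values were seen.

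The strongest of these genes with a single coding exon was HNRNPA0 itself, with highest read numbers of 112, 64 and 110 and 3 recurrent regions. The lists do not tell its own RNA from that of the vector. ATXN7L3B followed with 24, 14 and 18. ARF6, a small GTPase gene, had 7, 13 and 9, and the stress-induced chaperone gene HSPA1B had 10, 7 and 9, which is uncertain because its near-identical neighbour HSPA1A, with no listed peak, could share the reads. SOX4, a transcription factor gene, had 6, 6 and 10, and PURA, which encodes a purine-rich element-binding protein, had 6, 5 and 9. ATXN7L3B, ARF6, HSPA1B, SOX4 and PURA had 1 recurrent region each.

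The gene IDs whose highest read numbers were most like those of HNRNPK were sought by Euclidean distance on the log2 scale over the 3 replicates, among 3274 gene IDs with a peak in each. The nearest was HNRNPR, an hnRNP gene, with 21, 29 and 26 and a distance of 0.100. It was followed by both gene IDs that cover ARL6IP1, with 21, 28 and 25 and a distance of 0.130. For PCBP2 the nearest were TPGS2, with the same 11, 10 and 9, NUS1 with 12, 10 and 9, and ENSG00000276410, also with 12, 10 and 9. The measure rests on 3 libraries, and 39 gene IDs lay within 0.5 of HNRNPK and 133 within 0.5 of PCBP2. PCBP1 lacked a peak in 2 lists and could not be ranked in this way.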

How the data were processed

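The authors deposited 1 peak list per replicate on hg38, so peaks were called per sample, and the submitters' processing notes name bedtools and deepTools with no version. The p-value of each peak is the authors' own, with no adjustment stated, and all were under 0.05. How reads were aligned, counted and called as peaks, and whether molecular identifiers were used, is not given in the sources used here. The deposited read number is the last field of a peak's name, and no header says what it counts. It is taken as reads since larger numbers went with lower p-values in general, though not in every pair (Spearman's rho of -0.95, -0.95 and -0.94 across the lines of replicates 1, 2 and 3, as a description).

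Members were taken by Ensembl gene ID. Members and gene lists were chosen with earlier results of these data known. Genes in the lists were tied to the gene ID with at least 90% of its peak centres in the RefSeq interval of that gene. Peaks were joined per gene ID and strand at an overlap of 1 bp, and the joining step was tested on simulated data. Lines with one interval and strand under several gene IDs were counted once in library sums. Distinct peaks numbered 15661 in replicate 1, 15486 in replicate 2 and 17791 in replicate 3. The planned log2 ratio of PCBP1 to its paralogs could not be formed where PCBP1 had no peak, so differences of summed read numbers were tested.

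Named were the 3 genes, KH-domain genes with a recurrent region (at most 12) and genes of a single coding exon with one (at most 8). PCBP3 and PCBP4 were also named, as were the 3 gene IDs most like each member. Peak sequences were not used because no genome was at hand, so the planned base composition and motifs of peaks were not analysed here. Python 3.11.15, pandas 2.3.3, numpy 2.4.6 and Biopython 1.88 were used.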

Additional observations from a re-analysis of the deposited data

How the results depend on the processing

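Of 91 values under alternative settings, 83 were counted as unchanged, 8 moved and none reversed. Unchanged meant within the spread between replicates, of the same direction or, for counts, within 1.5 times. Only the PCBP1 differences could be counted as reversed, and all other values only as unchanged or moved. Part of the 83 could not have changed. A mean with 1 replicate left out always lies within that spread. The PCBP1 differences were negative in every replicate, so leaving 1 out could not reverse them. For HNRNPK, neither the cut by p-value nor that at a read number of 10 removed a peak, and the summed read number stayed at 176. The tally is therefore a description and no test of robustness. The recurrent regions of HNRNPK numbered 5, and 3 when peaks had to overlap by 50% of both, 9 when 2 or more replicates sufficed, and 6 to 7 with 1 replicate left out. The 2 of PCBP2 became 1 with an overlap of 50% of both peaks, 0 when each list was cut to the 50% with the lowest p-values, 0 when read numbers under 10 were dropped, 7 when 2 or more replicates sufficed, and 3 to 5 with 1 replicate left out, with 5 without replicate 1. The summed read number of PCBP2 was 7 when read numbers under 10 were dropped, against 56.3. PCBP1 had 0 recurrent regions under every alternative listed for it, but it had only 1 line, in 1 replicate. Only taking members by RefSeq interval could therefore have given it a recurrent region, and that also gave 0. For PCBP1 minus HNRNPK the summed difference ranged from -191.5 to -165.5 with 1 replicate left out. For PCBP1 minus PCBP2 it ranged from -59.5 to -46.0. No pairing between groups of samples was possible because the replicates form 1 group. The tested differences were paired within replicates and compare genes, not groups of samples. Low read numbers limit PCBP1 and PCBP2 most: a peak near 3 or 5 reads is close to the lowest the lists contain.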
